A study of Mus musculus with 35 samples.

Results

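The medulla of wild-type (WT) mice was compared between 9 and 5 weeks of age by RNA-seq of bulk tissue. The members were the 7 WT medulla libraries of these ages among the 35 libraries of the series, 5 from mice of 9 weeks and 2 from mice of 5 weeks, chosen by their titles. All were C57Bl/6J mice that carried no SCA7 allele, had received no treatment, and served in the study as controls for mice with an expanded ataxin 7 gene. Each library came from the flash-frozen medulla of 1 mouse, so p-values measure the spread between libraries of single animals. Over the 7 libraries this spread also holds the difference in sequencing depth between 9-week libraries, given below. The comparison asks how the WT tissue differed between these ages.

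The depth of the libraries came in 2 classes. The 5-week libraries and 9-week replicates 2 and 5 held between 33462767 and 38162996 counts (called deep here, over 1000000 counts). The 9-week replicates 1, 3 and 4 held between 121251 and 129702 counts (called shallow). A gene at 0 counts in a shallow library could still be present at up to 23.1 to 24.7 CPM (counts for each 1000000 counted), taking 3 counts as the limit that a count of 0 allows, against 0.0786 to 0.0897 CPM in a deep one. These limits cover counting error only. Levels are given as CPM after TMM normalization (a scaling that removes differences in composition between libraries). Differences are log2 fold changes of 9 weeks over 5 weeks from edgeR, with Benjamini-Hochberg adjusted p-values over all genes tested. In a bulk sample, fewer cells of a type and less RNA per cell cannot be told apart.

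The medulla is the lowest part of the brainstem and passes into the cervical spinal cord. It holds the neurons of breathing, swallowing and tongue movement, and many glycine-releasing neurons. Along the hindbrain and cord, each level keeps its own combination of Hox genes, homeobox transcription factors that lie in clusters in the order in which they are used. Paralogs with low numbers reach forward to the hindbrain, those with high numbers begin further back in the cord, and the midbrain and forebrain express none. Dopamine neurons lie in the midbrain, serotonin neurons in the raphe nuclei from the midbrain down to the medulla, and noradrenaline neurons in the pons and medulla.

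The labelled tissue was first checked against genes that mark it. *Slc6a5*, the glycine transporter of glycine-releasing neurons, was at 13.1 CPM in 5-week replicate 1 and 246 CPM in 5-week replicate 2. It was at 410.3 and 360.6 CPM in the deep 9-week libraries and between 132 and 253 CPM in the shallow ones. The library labelled 5-week replicate 1 was thus the lowest of the deep libraries in this gene, and it also lacked the Hox genes of the hindbrain. The 12 Hox genes of paralog groups 2 to 5 together gave 7 counts in 38162996 there, against 3214 in 5-week replicate 2, 11187 in 9-week replicate 2 and 10653 in 9-week replicate 5. Among the shallow libraries, 9-week replicate 4 gave 2 counts for these 12 genes, against 18 and 30 in replicates 1 and 3. The defining Hox genes of the medulla were therefore at or near 0 in the library labelled 5-week replicate 1 and scarce in that labelled 9-week replicate 4. The main results are given also without 5-week replicate 1 or, for the deep libraries, against 5-week replicate 2 alone.

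The 5-week libraries were also further from each other than the deep 9-week libraries were. Of 14938 genes with a mean of at least 1 CPM in the deep libraries, 501 (3.35%) differed by more than 2-fold between the 5-week replicates. The same held for 154 (1.03%) between the deep 9-week replicates. Between 5-week replicate 2 and 9-week replicates 2 and 5 the counts were 254 and 273, and between 5-week replicate 1 and the same libraries they were 617 and 585. The 2 ages thus differed by fewer genes than the 5-week replicates did when replicate 2 stood for 5 weeks. All 7 libraries had *Xist*, the RNA of X inactivation, between 253 and 519 CPM, and 1 count in all for 4 Y-linked genes.

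Few genes passed the test. Over the 7 libraries, 18852 genes were tested. At 9 weeks 2 genes were higher (0.0106% of those tested) and 1 was lower (0.0053%) at an adjusted p under 0.05. In the deep libraries alone, 2 against 2, 18820 genes were tested, 1 was higher (0.00531%) and 0 were lower (0%). At an unadjusted p under 0.05, 295 genes were higher (1.56%) and 336 lower (1.78%) over the 7 libraries. In the deep libraries 348 were higher (1.85%) and 560 lower (2.98%). The median of all genes was -0.04 over the 7 libraries and -0.01 in the deep ones. The median 95% interval of a gene with at least 1 CPM reached 0.75 to each side on the log2 scale over the 7 libraries. In the deep libraries it reached 0.36. These intervals are not adjusted for the number of genes, so far larger differences could miss the adjusted threshold. In the deep libraries *Slc6a3*, at -7.04, did not pass it. Without 5-week replicate 1 the 7-library fit called 2 genes higher and 3 lower, and without both it and 9-week replicate 4, a choice made after seeing the data, 2 higher and 2 lower. Without 5-week replicate 2 the counts were 48 and 45. Leaving out 1 of the 3 shallow libraries gave 1 higher and 0 lower each time, and leaving out deep replicate 2 or 5 gave 136 or 131 higher and 29 or 39 lower. Without 5-week replicate 1 the deep fit called 38 higher and 97 lower against a single 5-week library.

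The higher genes were *Hoxb7* and *Hoxb8*, neighbouring members of the Hoxb cluster, and the lower gene was *Slc6a3*, the dopamine transporter of midbrain dopamine neurons. In GRCm38.p6, *Hoxb8* lies on chromosome 11 from 96279401 to 96285325, *Hoxb7* beside it from 96285604 to 96290163, and *Slc6a3* on chromosome 13 from 73536128 to 73578672. RefSeq promoter sequences were at hand for 2 of these 3 genes. Each runs from 250 bases before to 50 bases after the transcript start that RefSeq's table uses, which lies inside the gene span given above, and is shown because these genes carry the called differences in opposite directions. The plus strand is given, 5′ to 3′, at chr11:96281655-96281954 for *Hoxb8* and chr13:73536497-73536796 for *Slc6a3*, with matches to any of 4 motifs in capitals.
Hoxb8: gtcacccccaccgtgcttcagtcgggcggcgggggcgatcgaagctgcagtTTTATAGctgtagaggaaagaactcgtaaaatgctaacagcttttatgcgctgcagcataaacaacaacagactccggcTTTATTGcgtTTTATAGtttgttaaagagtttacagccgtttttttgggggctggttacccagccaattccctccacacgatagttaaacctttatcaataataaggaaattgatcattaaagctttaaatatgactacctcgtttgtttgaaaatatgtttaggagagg
Slc6a3: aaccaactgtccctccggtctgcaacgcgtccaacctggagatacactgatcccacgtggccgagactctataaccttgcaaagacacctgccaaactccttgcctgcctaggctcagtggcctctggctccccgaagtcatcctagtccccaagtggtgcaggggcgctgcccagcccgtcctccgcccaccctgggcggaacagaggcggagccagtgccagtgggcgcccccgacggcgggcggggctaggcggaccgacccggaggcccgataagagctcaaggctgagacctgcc

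The motifs were searched on both strands. TTTATNG, the letters bound by the Cdx factors that set up posterior Hox genes, occurred 3 times in the *Hoxb8* window, and in 10.9% of 32851 promoters of this length. TATAAA occurred 2 times in *Hoxb8*, both times overlapping TTTATNG on the other strand, and in 13.6% of promoters. TGATTNAT, a Hox and Pbx site, and AAAGGTCA, the site of the dopamine neuron factor Nurr1, had no match in either window and occurred in 3.22% and 1.51% of promoters. The *Slc6a3* window held none of the 4 motifs. Its GC content was 66% and that of *Hoxb8* 42.3%. A match describes the letters only.

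*Hoxb7* gave 0 and 2 counts in the 5-week libraries, and 180 and 170 counts (4.64 and 4.63 CPM) in the deep 9-week libraries. The 3 shallow libraries had 0 counts, at which the level could not be read. The pooled deep ratio was 186-fold, with a counting interval of 51.1 to 1540. The fitted difference was 7.12 ± 0.83 (SE) over the 7 libraries (edgeR, adjusted p = 0.00126) and 7.36 ± 0.55 in the deep libraries (adjusted p = 0.0448). Fitted values of genes this close to 0 depend on the prior count. Without 5-week replicate 1 the 7-library value was 6.17 with an adjusted p of 0.00911.

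*Hoxb8* was at 0 and 0.309 CPM at 5 weeks (0 and 12 counts), and at 30.4 and 26.7 CPM in the deep 9-week libraries. The shallow replicates 1, 3 and 4 had 2, 1 and 0 counts (18.8, 8.83 and 0 CPM). The groups therefore did not overlap in the deep libraries, and over all 7 libraries 9-week replicate 4 met the 5-week range. Over all libraries the level was 16.9 ± 12.6 CPM (SD, n = 5) at 9 weeks and 0.155 ± 0.219 (n = 2) at 5 weeks. The pooled deep ratio was 191-fold, with a counting interval of 109 to 371. The fitted difference over the 7 libraries had a 95% interval of 5.21 to 9.20 (edgeR, adjusted p = 0.0207), and it was 7.54 ± 0.56 in the deep libraries, where the adjusted p was 0.0985. Without 9-week replicate 1, 3 or 4 the adjusted p over the remaining libraries was 0.208, 0.172 and 0.109. Without 5-week replicate 1 it was 6.16 over the remaining libraries, with an adjusted p of 0.000346.

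*Slc6a3* was at 45.8 and 20.9 CPM at 5 weeks, at 0.0774 and 0.436 CPM in the deep 9-week libraries and at 0 counts in the shallow ones. A count of 0 in these allows up to 23.1 to 24.7 CPM, above 5-week replicate 2. The shallow libraries thus could not place *Slc6a3* below its 5-week range. Its deep libraries did not overlap, and the pooled ratio was 134-fold higher at 5 weeks, with a counting interval of 85.7 to 223. The fitted difference was -7.02 ± 0.72 over the 7 libraries (edgeR, adjusted p = 0.0207) and -7.04 ± 0.65 in the deep libraries (adjusted p = 0.223). Without 5-week replicate 1 it was -6.33, with an adjusted p of 2.7e-05. Without 9-week replicate 1, 3 or 4 the adjusted p was 0.192, 0.164 and 0.109. In SCA7 medulla libraries, *Slc6a3* was at 24.3 CPM and *Hoxb8* at 0.223 CPM in 9-week replicate 5, and *Slc6a3* at 106 CPM (11 counts) and *Hoxb8* at 0 counts in 5-week replicate 1. In SCA7 9-week replicate 4 they were at 0.787 and 11.4 CPM. The first of these shows high *Slc6a3* with low *Hoxb8* at 9 weeks. In the shallow SCA7 5-week replicate 1, 0 counts allow *Hoxb8* at up to 28.7 CPM, so its level could not be read. At postnatal day 8 (P8), the WT medulla had *Hoxb8* at 199 and 171 CPM and *Slc6a3* at 0.467 and 0.335 CPM. The 5-week values of both genes lay outside those of P8 and of the deep 9-week libraries. P8 and 9 weeks did not match in *Hoxb8* either. Before TMM scaling, Hox paralog groups 6 to 9 summed to 573.9 and 678.9 CPM in the P8 medulla libraries. They gave 66.18 and 59.74 CPM in the deep 9-week medulla, and 499.8 to 734 CPM in the deep WT cord libraries of 5 and 9 weeks.

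Of all 22 tested Hox genes, these 2 included, 21 had a positive value in the deep libraries and 1, *Hoxd13*, a negative one (-0.49). Of 17 tested members of the list of hindbrain and cervical Hox genes, 11 were higher over the 7 libraries at an unadjusted p under 0.05 and 0 were lower. In the deep libraries 8 were higher, and for all 17 both 9-week libraries lay above both 5-week libraries, which was so for 17.6% of all genes tested. The median difference was 2.53 over the 7 libraries and 2.71 in the deep ones, and 1.70 in the deep libraries against 5-week replicate 2 alone. The summed level of the list was 0.241 CPM in 5-week replicate 1, 84.8 CPM in 5-week replicate 2, and 346 and 341 CPM in the deep 9-week libraries. In the shallow libraries it was 188, 309 and 26.4 CPM in replicates 1, 3 and 4.

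Against 5-week replicate 2, the difference grew along the Hoxb cluster. It was 1.36 for *Hoxb2*, 1.62 for *Hoxb3*, 2.01 for *Hoxb4*, 2.33 for *Hoxb5*, 4.04 for *Hoxb6*, 6.40 for *Hoxb7* and 6.51 for *Hoxb8*. The order of the genes on the chromosome was thus the order of the values, from the hindbrain end to the cord end of the cluster. In the Hoxa cluster the difference was 1.13 for *Hoxa2*, 1.20 for *Hoxa4*, 2.62 for *Hoxa5*, 2.77 for *Hoxa6* and 4.18 for *Hoxa7*, with *Hoxa3* out of order at 1.70. In the Hoxc cluster it was 1.53, 1.94 and 2.54 for *Hoxc4*, *Hoxc5* and *Hoxc6*. The Hoxd cluster did not follow this order, with 0.61 for *Hoxd1*, 1.38 for *Hoxd3*, 1.35 for *Hoxd4* and 0.88 for *Hoxd8*. In 5-week replicate 2, *Hoxd8* gave 8 counts. The last genes of the other clusters were low there too, at 2 counts for *Hoxa7* and 8 for *Hoxc6*. *Hoxb7* and *Hoxb8* gave 2 and 12, so the values at the cord end rest on few counts.

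**Figure D1:**
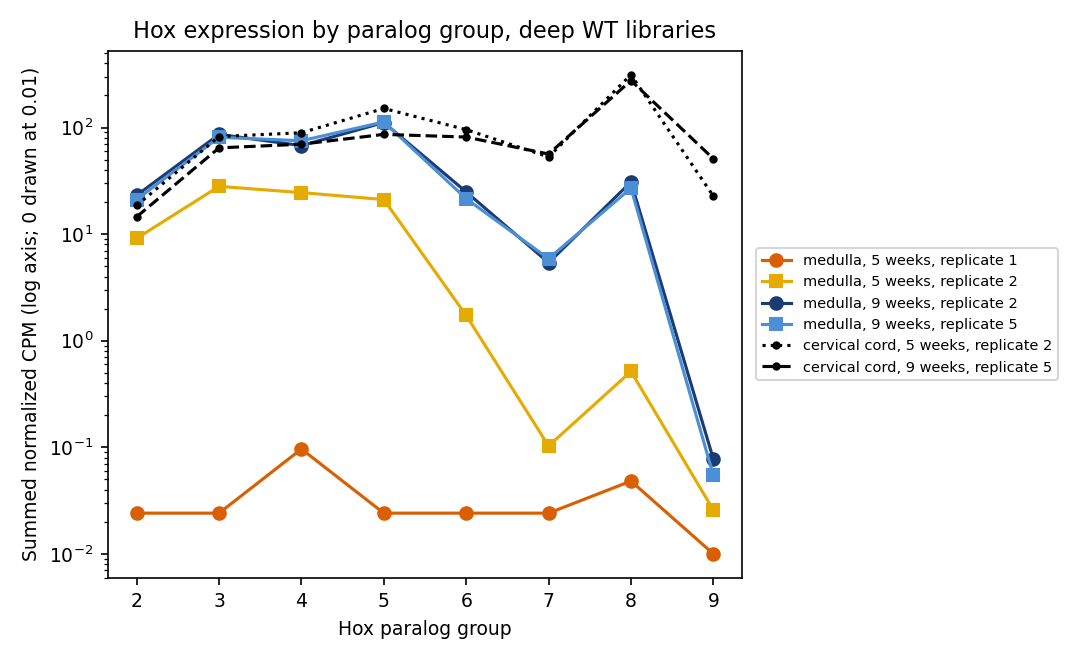
Summed normalized CPM of the Hox genes of each paralog group (horizontal axis, 2 to 9) on a log axis, in the 4 deep WT medulla libraries and in the cervical cord of 2 of the same mice, 1 line per library. The deep 9-week medulla libraries lie near the cord lines up to group 5 and fall below them from group 6, 5-week replicate 2 lies below the 9-week lines at every group, and 5-week replicate 1 stays at or below 0.0964 CPM, with a level of 0 drawn at the foot of the axis.

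The cervical cord of the same mice gave a reference for these levels. Over paralog groups 2 to 5, the medulla of 9-week replicates 2 and 5 had 117% and 123% of the level of its own cord, and that of 5-week replicate 2 had 24.3%. Over groups 6 to 9 the values were 13.6%, 11.7% and 0.489%. In the shallow 9-week replicates 1, 3 and 4 the medulla had 46%, 111% and 4.28% of its cord over groups 2 to 5. Over groups 6 to 9 it had 2.38%, 17.8% and 1.61%. These values rest on 18, 30 and 2 medulla counts for groups 2 to 5, and on 2, 5 and 1 for groups 6 to 9. Replicate 4 thus lay below 5-week replicate 2 over groups 2 to 5. The medulla of 5-week replicate 1 had 0.104% and 0.0431% of its cord, which gave 162.6 and 223.5 CPM and thus held these genes. The cords of 5-week replicate 1 and 9-week replicate 2 were shallow, with 16 and 23 counts for groups 2 to 5. In the cord, *Hoxb8* was between 106 and 330.4 CPM in all 7 libraries, and its difference between the ages was 0.20 ± 0.44. The age difference of *Hoxb8* was 7.22 ± 0.66 larger in the medulla than in the cord (edgeR with mouse as a block, adjusted p = 8.08e-24). Without the mouse of 5-week replicate 1 it was 6.31 ± 0.79 (adjusted p = 7.29e-12).

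Most genes of monoamine neurons had negative differences. Of 11 tested members of the list of monoamine synthesis and transport genes, 1 (*Slc6a3*) passed the adjusted threshold. At an unadjusted p under 0.05, 6 were lower over the 7 libraries and 9 in the deep libraries, with 0 higher in both. For 9 of the 11, both deep 9-week libraries lay below both 5-week libraries, which was so for 15.3% of all genes. The median was -1.54 over the 7 libraries, -1.78 in the deep ones, and -2.01 and -1.86 against 5-week replicates 1 and 2 taken singly, so the direction was the same against each.

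*Tph2*, which makes serotonin in neurons, was at 128.5 and 85.1 CPM at 5 weeks and at 0.49 and 18.8 CPM in the deep 9-week libraries. The shallow libraries had 28.1, 17.7 and 87.9 CPM, so the 9-week libraries reached the 5-week range. *Slc6a4*, the serotonin transporter, was at 79.2 and 41.2 CPM at 5 weeks, against 0.103 and 11.9 CPM in the deep 9-week libraries. In the shallow ones it was at 18.8, 35.3 and 61.5 CPM, so replicate 4 lay within the 5-week range. The deep 9-week replicates differed from each other by more than the 5-week replicates in both genes, replicate 2 being the lowest of all. *Fev*, the transcription factor of serotonin neurons, went from 5.01 and 3.92 CPM to 0.18 and 1.72 CPM.

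Genes shared by the monoamine cells moved less. *Slc18a2*, the vesicular monoamine transporter, was at 87.5 and 75.5 CPM at 5 weeks and at 5.83 and 27.4 CPM in the deep 9-week libraries, a difference of -2.31 ± 0.63. *Ddc*, the decarboxylase of dopamine and serotonin synthesis, changed by -1.78 ± 0.38 and *Th*, the first enzyme of dopamine and noradrenaline synthesis, by -1.49 ± 0.27 in the deep libraries. None of these 3 passed the adjusted threshold. *Slc6a2*, the noradrenaline transporter, differed by -1.47 ± 0.41 and *Dbh*, which makes noradrenaline, by -0.91 ± 0.60. *Maoa*, which degrades monoamines in many cell types, was at 57.4, 65.2, 59.4 and 70.1 CPM, and its groups overlapped.

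**Figure D2:**
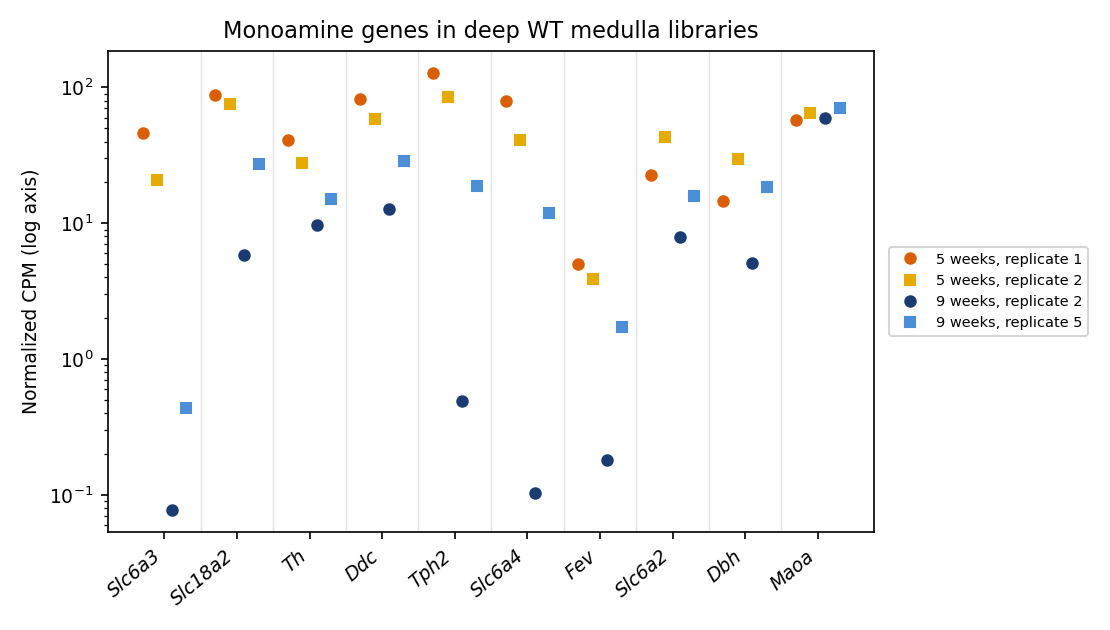
Normalized CPM (log axis) of 10 monoamine genes in the 4 deep WT medulla libraries, 1 point per library. Both 9-week libraries lie below both 5-week libraries for every gene shown except *Dbh* and *Maoa*, and 9-week replicate 2 is the lowest for all but *Maoa*.

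Genes that mark the brain in front of the medulla were examined after their values had been seen. *Foxa1* and *Foxa2*, transcription factors of the floor of the midbrain and of dopamine neurons, gave 104 and 38 counts and 89 and 24 counts at 5 weeks. In the deep 9-week libraries *Foxa1* gave 0 and 1 counts and *Foxa2* 0 and 2. *Pitx3*, a factor of midbrain dopamine neurons, gave 33 and 21 counts against 2 and 2. Both 5-week libraries thus held these transcripts at several times the 9-week level, though at no more than 2.51 CPM.

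Among other rostral genes, *Six3*, *Tcf7l2* and *Lhx9* stood mainly in 5-week replicate 1. *Six3*, a forebrain factor, was at 26.3 CPM there and 0.67 CPM in 5-week replicate 2, and gave 0 and 1 counts in the deep 9-week libraries. *Tcf7l2*, strong in thalamus and midbrain, was at 209 CPM in 5-week replicate 1, against 9.82, 7.27 and 7.44 CPM in the other deep libraries. *Lhx9* (44.5 against 4.36 to 5.36 CPM) showed the same order. *Pax7*, *En1* and *En2* stood above the deep 9-week libraries in both 5-week libraries. *Pax7*, a factor of the dorsal midbrain, was at 13.4 and 4.84 CPM at 5 weeks and 0.0258 and 0.763 CPM in the deep 9-week libraries. *En1*, which marks the midbrain and hindbrain border region, was at 24.4 and 9.56 CPM against 0.593 and 3.6 CPM, and *En2* at 24.7 and 16.7 against 5.78 and 7.38 CPM. Of 7 tested genes of the forebrain list, 2 were lower over the 7 libraries and 3 in the deep libraries at an unadjusted p under 0.05, with 0 higher. Its median was -0.94 over the 7 libraries, and in the deep libraries -1.38 against 5-week replicate 1 and -0.53 against replicate 2. How much of each age difference goes with the rostral genes of the 5-week libraries was not tested.

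Cerebellar genes split the libraries differently. The list's median was 0.06 over the 7 libraries and -0.0042 in the deep ones, but 1.46 against 5-week replicate 1 and -0.71 against replicate 2. At an unadjusted p under 0.05, 3 of its 10 genes were lower and 0 higher in each fit. Over all genes, 1.78% were lower over the 7 libraries and 2.98% in the deep ones. For 3 of the 10, both deep 9-week libraries lay below both 5-week libraries, which was so for 15.3% of all genes. *Gabra6*, a receptor subunit of granule cells, was at 0.579 and 23.2 CPM at 5 weeks and 10.6 and 18.2 CPM in the deep 9-week libraries. *Cbln3*, also of granule cells, was at 1.98, 60.3, 33.2 and 26.9 CPM in these libraries and at 149 CPM (17 counts) in 9-week replicate 4. The ages overlapped in both genes.

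Choroid plexus genes stood apart in a single library. *Ttr*, the transthyretin secreted by choroid plexus, was at 718.5 CPM in 5-week replicate 2 and at 0.675 CPM in replicate 1, against 25.0 and 41.4 CPM in the deep 9-week libraries. Of 8 list members, 7 were lower over the 7 libraries at an unadjusted p under 0.05, with a median of -2.07, and 1 in the deep libraries. The deep median of -2.08 was 0.55 against 5-week replicate 1 and -2.71 against replicate 2, so its sign turned with the library used. *Otx2*, a factor of both choroid plexus and midbrain, was that gene, at 9.33 and 6.57 CPM against 2.11 and 1.61 CPM (-2.10 ± 0.26).

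Genes of the meninges and of the matrix of vessels had negative medians against each 5-week library. All 9 meningeal fibroblast genes had a negative value in the deep libraries, with a median of -0.78, and 5 were lower at an unadjusted p under 0.05. Both deep 9-week libraries lay below both 5-week libraries for 7 of them. Over all genes tested in the deep libraries, these 2 shares were 2.98% and 15.3%. Their counterparts for higher genes were 1.85% and 17.6%, and the same shares apply to the deep counts of every list. *Ogn*, a matrix proteoglycan, was at 10.5 and 18.1 CPM at 5 weeks and 8.48 and 6.51 CPM in the deep 9-week libraries. *Dcn*, decorin, was at 18.3, 28.0, 22.8 and 16.5 CPM and overlapped. Of 17 collagen and vascular matrix genes, 5 were lower in the deep libraries and 0 higher, with a median of -0.39. *Col3a1*, a fibrillar collagen, differed by -1.54 ± 0.37. *Col4a1*, of basement membranes, differed by -0.73 ± 0.17 and *Col4a2* by -0.55 ± 0.17. In the cord of the same mice the medians of these 2 lists were 3.15 and 0.59, thus opposite in sign, but 0 cord genes passed the adjusted threshold of edgeR. In the deep cord libraries, *Ogn* gave 48 counts in 5-week replicate 2, and 69 and 2073 in 9-week replicates 1 and 5. *Col3a1* gave 170, 236 and 1649 counts in the same order. For these genes the cord difference thus stood mainly in 9-week replicate 5.

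Smooth muscle genes of vessels lay on the same side in the deep libraries. *Tagln*, transgelin, was at 16.2 and 10.1 CPM at 5 weeks and 7.94 and 3.7 CPM in the deep 9-week libraries, and *Acta2*, smooth muscle actin, at 21.8 and 10.2 against 9.33 and 3.81 CPM. In the shallow libraries *Acta2* reached 61.8 CPM (7 counts), so over the 7 libraries its value was -0.31. Of 18 endothelial and mural genes, 2 were lower in both fits at an unadjusted p under 0.05 and 0 were higher, with a deep median of -0.28.

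Among the glia, genes of oligodendrocyte precursors mostly had small negative differences. *Gpr17*, a receptor of cells about to become oligodendrocytes, was at 93.5 and 86.6 CPM at 5 weeks and 58.4 and 38.2 CPM in the deep 9-week libraries, and at 46.9, 70.6 and 61.5 CPM in the shallow ones. All 5 of the 9-week libraries lay below both 5-week libraries. Its difference was -0.77 ± 0.26 over the 7 libraries and -0.91 ± 0.20 in the deep ones, and -0.85 against 5-week replicate 2 alone, and it passed the adjusted threshold in neither fit. *Olig1*, a transcription factor of the lineage, was at 241 and 278 CPM at 5 weeks and between 123 and 235 CPM at 9 weeks, also with no overlap, and its deep difference was -0.16 ± 0.12. Of the 12 precursor genes, 1 was lower and 0 higher at an unadjusted p under 0.05 in each fit, and 11 had a negative value in the deep libraries, with a median of -0.19.

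Myelin genes as a list did not move to one side. Of 23 genes, 1 was higher and 2 lower in the deep libraries at an unadjusted p under 0.05, and the median of -0.08 was 0.20 against 5-week replicate 1 and -0.35 against replicate 2. *Mbp*, myelin basic protein, was at 7145 and 12350 CPM at 5 weeks and 9470 and 7776 CPM in the deep 9-week libraries. *Opalin*, a myelin membrane protein, was at 49.8 and 47.6 CPM against 33.4 and 35.0 CPM (-0.52 ± 0.11), and *Mal*, a myelin lipid-raft protein, differed by -0.48 ± 0.15. *Il33*, a cytokine of oligodendrocytes, differed by 0.28 ± 0.10. These 3 were the myelin genes with an unadjusted p under 0.05 in the deep libraries.

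Astrocyte and microglial genes had small and mostly positive differences in the deep libraries, with 13 of 18 and 12 of 15 values above 0. Of 18 astrocyte genes, 2 were higher and 0 lower in the deep libraries, with a median of 0.12. They were *Sox9*, a transcription factor of astrocytes, and *Fgfr3*, a growth factor receptor. *Sox9* was at 28.9 and 32.6 CPM against 45.4 and 40.4 CPM (0.47 ± 0.13). *Fgfr3* was at 189 and 195 against 248 and 231 CPM (0.31 ± 0.11). The shallow replicates 1, 3 and 4 gave 3, 2 and 4 counts of *Sox9* and 14, 23 and 27 of *Fgfr3*. With these libraries included, the ages overlapped in both genes. *Gfap*, the filament protein of astrocytes, was at 597 CPM in 5-week replicate 2, 539.5 and 473 CPM in the deep 9-week libraries and lower than in these in 5-week replicate 1, and it differed by 0.34 ± 0.46. Of 15 microglial genes, 1 was higher, *Ctss*, a lysosomal protease (30.8 and 39.1 against 44.3 and 45.5 CPM), and the median was 0.06. Of 15 genes of antigen presentation and interferon, 1 was lower and the median was 0.02. Of 16 tested proliferation genes 0 passed even the unadjusted threshold of edgeR in either fit, and their deep median was 0.16.

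Neuronal genes differed one by one. Of 14 pan-neuronal genes, 2 were lower in the deep libraries, *Syt1*, the calcium sensor of transmitter release (620.3 and 368 CPM against 251 and 311 CPM, -0.82 ± 0.26, and -0.39 against 5-week replicate 2 alone), and *Vamp2*, a vesicle fusion protein (-0.41 ± 0.15). *Vamp1*, its counterpart in brainstem and cord, was at 728 and 1001 CPM against 1209 and 1095 CPM, and between 1222 and 1707 CPM in the shallow libraries, thus above both 5-week libraries in all 5 of the 9-week libraries (0.64 ± 0.23 over the 7 libraries, 0.41 ± 0.19 in the deep). The neurofilament *Nefm* was at 671 and 1475 CPM at 5 weeks and overlapped the 9-week range of 984 to 1916 CPM.

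Some transmitter genes lay on one side of both 5-week libraries in the deep 9-week libraries. Among 3 vesicular glutamate transporter genes, 1 was lower in this way and 0 were higher. The list of 7 glycine and GABA synthesis and transport genes had 2 lower and 2 higher. *Slc17a8*, the third vesicular glutamate transporter, which serotonin neurons also use, was at 14.6 and 12.7 CPM at 5 weeks and 3.53 and 4.88 CPM in the deep 9-week libraries (-1.70 ± 0.20). Its shallow libraries had 18.8, 0 and 8.79 CPM, on both sides of the 5-week values. *Slc17a6*, the main glutamate transporter of the brainstem, was at 311 and 177 CPM against 244 and 241 CPM. *Gad1* and *Gad2*, which make GABA, were at 442 and 377 CPM in 5-week replicate 1, and at 227 and 216 CPM in replicate 2. The deep 9-week values were 224 and 196 CPM for *Gad1* and 182 and 187 CPM for *Gad2*. Against 5-week replicate 2 alone, the differences were -0.12 and -0.23. Of 7 cholinergic and motor neuron genes 0 passed the unadjusted threshold of edgeR in either fit.

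Receptor subunits of GABA moved in both directions. In the deep libraries 3 of 15 glycine and GABA receptor genes were higher and 3 lower at an unadjusted p under 0.05. *Gabra5*, an extrasynaptic subunit, was at 27.8 and 31.2 CPM at 5 weeks and 54.9 and 45.6 CPM in the deep 9-week libraries (0.76 ± 0.14). The shallow replicates 1, 3 and 4 gave 1, 3 and 2 counts of it and did not show it above the 5-week values. *Gabra2* was at 25.2 and 26.6 against 34.8 and 34.0 CPM in the deep libraries (0.40 ± 0.11). It gave 2, 5 and 1 counts in the shallow ones. Both genes were short of the adjusted threshold. Among the 3 lower genes, *Gabrb2*, a subunit of synaptic receptors, was at 354 and 159 against 118 and 142 CPM, and *Gabrd*, an extrasynaptic subunit, at 12.3 and 8.79 against 5.26 and 5.34 CPM. *Glra1*, the adult glycine receptor, was at 32.3 and 88.9 CPM against 132 and 118 CPM (1.04 ± 0.43, and 0.49 against 5-week replicate 2 alone). Of 15 glutamate receptor genes 1 was lower and 0 higher, and of 17 potassium and sodium channel genes 1 was higher and 0 lower.

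Of 20 genes of immature neurons and axon growth, 4 were lower and 0 higher at an unadjusted p under 0.05 in the deep libraries. Over all genes 2.98% were lower and 1.85% higher. The median of the list was -0.22. *Marcksl1*, a protein of growing axons, was at 68.0 and 65.5 CPM against 44.5 and 42.1 CPM (-0.63 ± 0.10). *Nnat*, neuronatin, was at 258 and 209 against 119 and 155 CPM (-0.78 ± 0.17). The deep groups did not overlap in either gene. Of 13 tested fetal growth and imprinted genes, 2 were lower and 0 higher. *Igf2*, a growth factor of the meninges and choroid plexus, differed by -0.89 ± 0.34 and *Igfbp5*, its binding protein, by -0.45 ± 0.14.

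Genes induced by glucocorticoids, the hormones released in stress and by the daily rhythm, had mostly negative differences. Of 14 genes, 3 were lower over the 7 libraries at an unadjusted p under 0.05, where 1.78% of all genes were, with a median of -0.43. In the deep libraries 8 were lower, where 2.98% of all genes were, with a median of -0.52, and 0 were higher in either fit. The deep median was -0.33 and -0.72 against 5-week replicates 1 and 2. *Sgk1*, a kinase induced by these hormones and found in oligodendrocytes, was at 264 and 366 CPM at 5 weeks and 115 and 111 CPM in the deep 9-week libraries (-1.49 ± 0.17, edgeR adjusted p = 0.385, and -1.70 against 5-week replicate 2 alone). The shallow libraries had 281, 115 and 61.5 CPM, so replicate 1 lay within the 5-week range. *Ddit4*, an inhibitor of mTOR signalling, was at 92.1 and 96.1 CPM against 47.6 and 55.8 CPM (-0.87 ± 0.12). *Zbtb16* (-0.85 ± 0.24), *Nfkbia* (-0.73 ± 0.15) and *Fkbp5* (-0.55 ± 0.18) had unadjusted p-values under 0.05 too, but *Mt1* and *Tsc22d3* had values of 0.31 and -0.07. In the cord of the same mice, *Sgk1* was at 345 and 432 CPM at 5 weeks and between 35.7 and 256 CPM at 9 weeks (-1.51 ± 0.43, edgeR adjusted p = 0.820). In SCA7 medulla it was at 77.3 and 109.5 CPM in the shallow 5-week libraries and between 138 and 215.5 CPM at 9 weeks, in the opposite order to the WT deep libraries.

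Of 16 clock genes 4 were higher and 0 lower at an unadjusted p under 0.05 in the deep libraries. Over all genes 1.85% were higher and 2.98% lower. The clock list as a whole was evenly split, with 8 positive and 8 negative values and a median of 0.03. *Hlf*, of the same list, was at -0.14. The 4 higher genes were outputs or repressors of the daily clock. *Dbp* was at 54.6 and 58.0 CPM at 5 weeks and 80.9 and 83.1 CPM in the deep 9-week libraries (0.54 ± 0.10). *Nr1d2* differed by 0.35 ± 0.10, *Per3* by 0.39 ± 0.11 and *Ciart* by 0.46 ± 0.14. Of 18 immediate early genes 2 were lower, *Fos* (21.7 and 15.9 against 11.7 and 9.42 CPM) and *Nr4a3* (11.1 and 8.48 against 3.92 and 3.19 CPM), by -0.84 ± 0.20 and -1.47 ± 0.21. Against 5-week replicate 2 alone they differed by -0.60 and -1.26. Of 17 heat shock genes 4 were lower, including *Hspa5* (-0.35 ± 0.12), and of 5 red blood cell genes 2 were higher. Among the lists not yet named, 2 of 8 perineuronal net genes, 2 of 17 neuropeptide genes and 1 of 8 tested histone genes were lower, and 0 of 19 cholesterol synthesis, 6 ependymal, 5 Schwann cell and 2 skeletal muscle genes passed the unadjusted threshold of edgeR in the deep libraries. The time of day of dissection was not given in the sources used here.

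**Figure D3:**
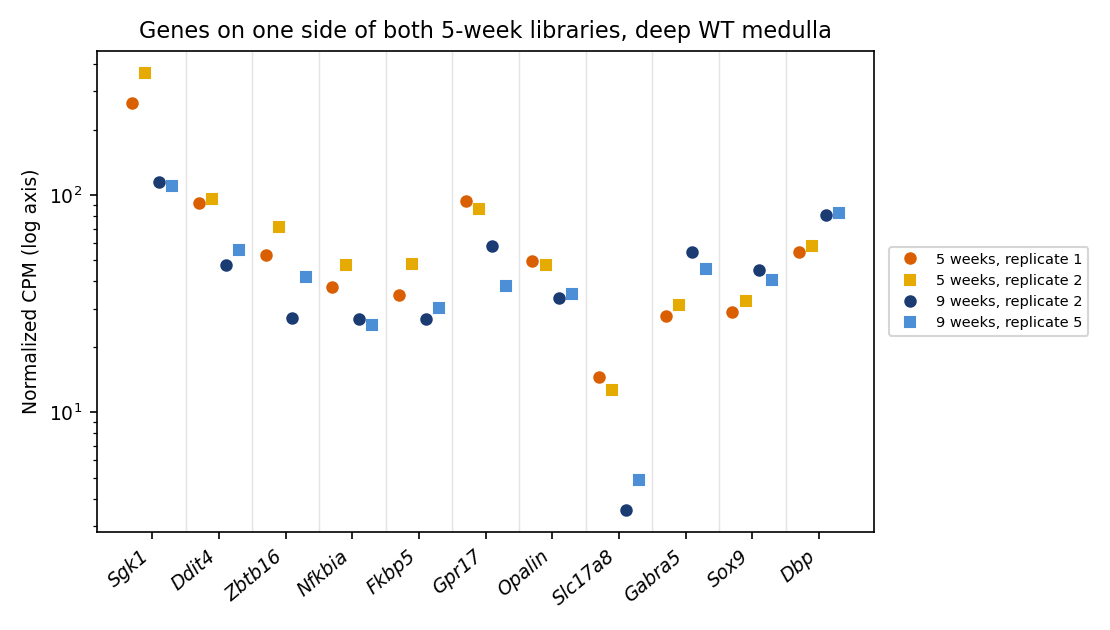
Normalized CPM (log axis) of 11 genes in the 4 deep WT medulla libraries, 1 point per library, chosen after their values were seen as genes on one side of both 5-week libraries. *Sgk1* to *Slc17a8* are lower and *Gabra5*, *Sox9* and *Dbp* higher in both deep 9-week libraries, and none of the 11 passed the adjusted threshold.

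A few further genes were singled out after their values were seen. *Tac2*, the tachykinin precursor of neurokinin B, was at 0.241 and 0.412 CPM at 5 weeks and 2.84 and 3.0 CPM in the deep 9-week libraries (3.15 ± 0.33, edgeR adjusted p = 0.270, and 2.81 against 5-week replicate 2 alone), and *Nmu*, neuromedin U, gave 2 and 6 counts against 67 and 53. *Serpinb1b*, a protease inhibitor, was at 3.81 and 6.08 CPM against 27.9 and 25.3 CPM (2.42 ± 0.23, edgeR adjusted p = 0.223, and 2.12 against 5-week replicate 2 alone). In the shallow libraries *Serpinb1b* had 28.1, 17.7 and 0 CPM, the 0 in replicate 4, the one with few Hox counts. *Angptl4*, a lipase inhibitor, was at 4.03 and 3.86 CPM against 1.29 and 1.2 CPM.

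The lists can be set side by side. Against the 5-week replicates taken singly, the medians of the monoamine, meningeal, forebrain, glucocorticoid and collagen lists were negative each time, that of the Hox list was positive each time, and those of the choroid plexus, cerebellum, myelin, microglia and mitochondrial lists changed sign.

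**Figure D4:**
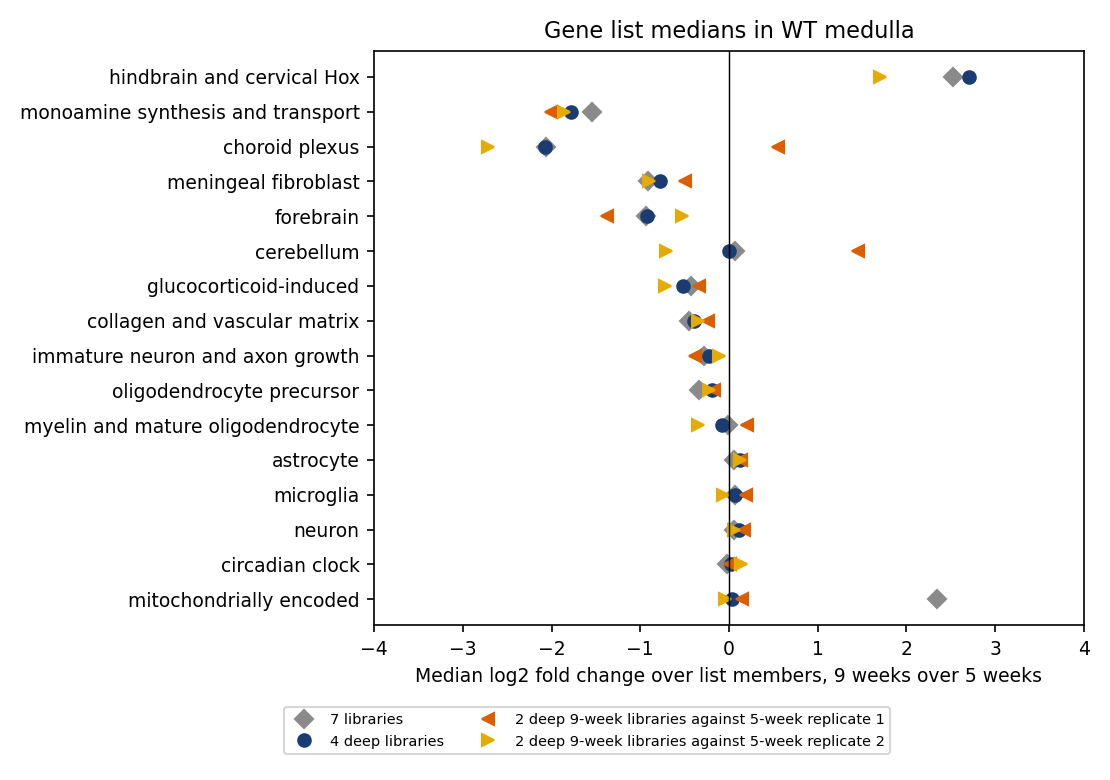
Median log2 fold change of 9 weeks over 5 weeks (horizontal axis) for 16 gene lists over the 7 libraries, in the 4 deep libraries, and for the 2 deep 9-week libraries against each 5-week library. The Hox median against 5-week replicate 1 (10.6) lies outside the axis and is not drawn, and the mitochondrial list stands apart over the 7 libraries (2.35) and not in the deep ones (0.04).

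Mitochondrially encoded genes separated the depth classes and not the ages. They took between 19.37% and 20.63% of the counts in the shallow libraries and between 3.473% and 4.002% in the deep ones. *ATP6*, a subunit of ATP synthase, gave 3 and 5 counts in the 5-week libraries and 8 and 7 in the deep 9-week libraries, but 1707, 1892 and 1683 counts in the far smaller shallow libraries. *COX2*, *COX3*, *ND4L* and *ATP8* showed the same split, and *COX1* was at 12100 to 13940 CPM in the deep and 90550 to 105700 CPM in the shallow libraries. Over the 7 libraries 12 of 13 genes were higher at an unadjusted p under 0.05, with a median of 2.35, and in the deep libraries 1 of 9 tested, with a median of 0.04. The exception in the deep libraries was *ND3*, at 10.5 and 10.7 CPM against 16.7 and 24.2 CPM. Both depth classes occur at 9 weeks, so the split is seen within 1 age. *Mbp* moved with depth too, at 16610 to 32000 CPM in the shallow libraries.

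**Figure D5:**
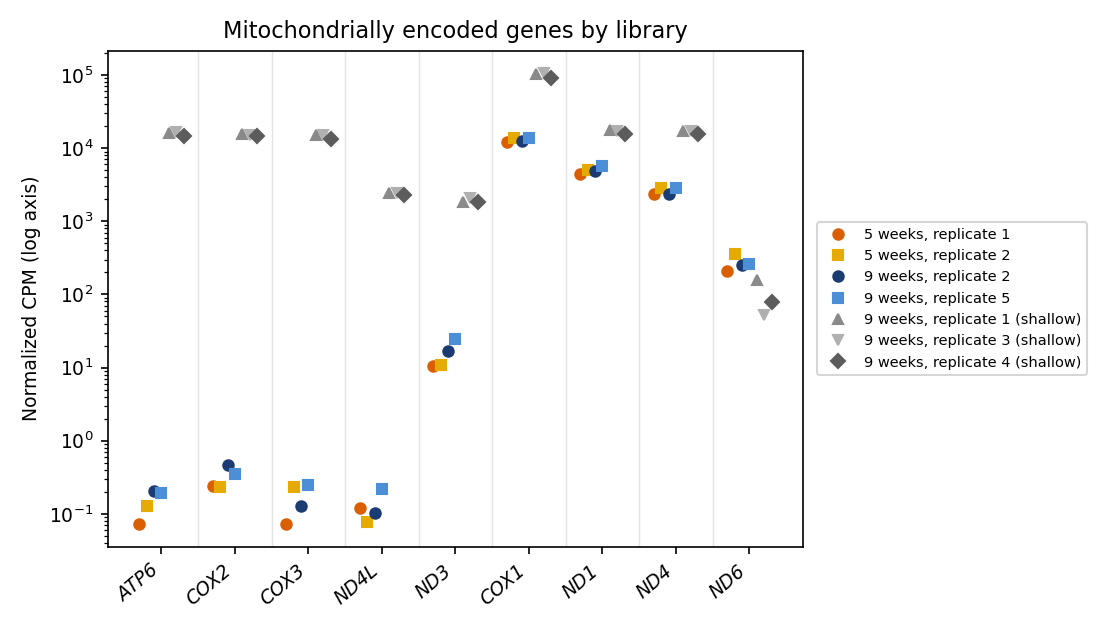
Normalized CPM (log axis) of 9 mitochondrially encoded genes in the 7 WT medulla libraries, 1 point per library. The 3 shallow libraries lie above the 4 deep ones for all genes shown except *ND6*, and the deep libraries of both ages lie close together.

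The same ages were compared in the cervical cord of the same mice and in the medulla of SCA7 mice. In the WT cord 0 of 18483 genes passed in edgeR (0%), with 291 at an unadjusted p under 0.05, and DESeq2 called 1. In SCA7 medulla, where both 5-week libraries were shallow, 1 of 18657 passed (0.00536%). The share of genes with the same sign in WT and SCA7 medulla was 45.5% of 2609, without the mitochondrial genes. These genes were expected to give 10 counts in the smallest WT library. For the 125 with an unadjusted p under 0.05 in WT the share was 42.4%. In WT both 5-week libraries were deep and 9-week replicates 1, 3 and 4 shallow. In SCA7 both 5-week libraries were shallow and 9-week replicates 4 and 5 deep. Depth thus ran with age in opposite directions, and its part in these shares was not tested. The age difference differed between medulla and cord for 96 of 19383 genes (0.495%), and among the 5 smallest adjusted p-values were 4 mitochondrial genes, *ATP8*, *ND4L*, *ATP6* and *COX3*. Without the mouse of 5-week replicate 1 there were 39 calls, and none of these 4 genes passed the adjusted threshold of edgeR. The depth class of the medulla and cord of one mouse differed in 3 of 7 mice.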

How the data were processed

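RNA was taken from flash-frozen medulla with a Qiagen kit and measured by RNA-seq. The deposited values are raw counts of reads per gene symbol, which the authors made from uniquely mapped reads on GRCm38 (mm10 in the submitters' notes). The aligner and counter are not given in the sources used here. Each library has 35976 symbols, of which 32501 were found in RefSeq.

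WT medulla was fitted with age as the only term by the quasi-likelihood test of edgeR 4.0.16 in R 4.3.3, over all 7 libraries and over the 4 deep ones apart. Genes needed 10 counts in at least 1 library, scaling was TMM, and p-values were adjusted by Benjamini and Hochberg over all genes tested, with a threshold of 0.05. Medulla and cord were compared with mouse as a block, and SCA7 medulla in the same way as WT. The script was tested on simulated data. Deep medulla totals were 33462767 to 38162996 counts and shallow ones 121251 to 129702. Ratios pool the deep libraries of an age and carry exact 95% intervals for counting error only. No pair of replicates looked like 1 library deposited 2 times, since their counts differed by more than sampling noise.

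Alternatives were DESeq2 1.42.0, earlier settings of edgeR, voom of limma 3.58.1 with sample weights, other scalings and filters, depth as a term, thinning, other sets of libraries, the replicate number as a block, and each library left out.

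Genes were named when past the adjusted threshold with the ages on separate sides, in each list when past 0.05 or else the 3 highest in CPM, and as the 5 smallest adjusted p-values of the tissue comparison. Other names were chosen after their values were seen. The members and the gene lists were chosen with earlier results of these data known. The results of a few genes are not reported here.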

Additional observations from a re-analysis of the deposited data

Results flagged for a closer look

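In 2 of 58 genes tested, 1 of the 5 WT 9-week libraries stood far from the other 4. It was the shallow replicate 1 each time. *Sgk1*, a kinase induced by glucocorticoids, was at 281 CPM against 61.5 to 115 CPM. *Slc6a9*, a glycine transporter of glia, was at 534 CPM against 203 to 269 CPM. Chance marks about 1 in 20 such groups, so 2 of 58 is no more than that share.

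The age difference was larger in the medulla than in the cord of the same mice for the 5 genes with the smallest adjusted p-values (edgeR, mouse as a block). It was larger by 15.2 for *ATP8* (adjusted p = 7.75e-59), by 11.4 for *ND4L* (adjusted p = 1.7e-34), by 11.7 for *ATP6* (adjusted p = 2.84e-24), by 7.22 for *Hoxb8* (adjusted p = 8.08e-24) and by 8.59 for *COX3* (adjusted p = 4.37e-15). Without the mouse of 5-week replicate 1 the difference was 6.31 for *Hoxb8* (adjusted p = 7.29e-12), and 1.60, 1.26, -0.51 and -0.070 for *ATP8*, *ND4L*, *ATP6* and *COX3*, none of which passed. For these 4 mitochondrial genes, the depth class of the medulla and cord libraries differed in 3 of 7 mice, and its part was not tested.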

How the results depend on the processing

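The 3 genes called between the ages kept their direction under all alternatives that gave a value, and the counts of calls did not keep their size. Over the 7 libraries, edgeR called 2 genes higher and 1 lower. DESeq2 called 40 and 1, earlier edgeR settings 7 and 3, depth as a term 15 and 25, P8, 5 and 9 weeks in one fit 5 and 1, and no filter 1 and 0. Voom with sample weights, 10 counts in every library, thinning, and all medulla libraries in one fit each called 0 and 0. The replicate numbers did not pair the samples, since the mice of the 2 ages were different animals. Correlations of -0.0564 to 0.0564 between replicates of the 2 ages could not decide this. The values of the 2 5-week libraries were the same with opposite sign. The fit with the replicate block called 0 higher and 0 lower. Leaving out each library gave 1 to 136 higher and 0 to 45 lower. In the deep libraries, edgeR called 1 and 0, DESeq2 21 and 43, earlier settings 0 and 0, 10 counts in every library 0 and 0, and no filter 0 and 0. Leaving out each of these gave 0 to 519 higher and 0 to 746 lower, with 1 library left at that age. In the cord, 0 calls became 1 with DESeq2, 18 with library totals and 0 to 37 without single mice. For the difference between tissues, 96 calls became 1 with DESeq2 and 30 to 148 without single mice. The values of *ATP6* and *COX3* turned to -0.51 and -0.070 without the mouse of 5-week replicate 1. In SCA7 medulla, 1 call became 3 with library totals and 0 to 51 without single libraries. The causes were not tested.

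Depth limits the 7-library fit, in which a gene needs at least 23.1 CPM to give 3 counts in a shallow library. The deep comparison rests on 2 libraries an age, and the regional genes of 5-week replicate 1 stand apart from its label.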
